A study of Homo sapiens with 6 samples.

Results

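Tumour cells with stem-like properties in liver cancer are usually recognised by a short list of surface proteins and transcription factors. The 10 genes described here were the surface markers CD44, PROM1 (CD133), EPCAM, CD24, THY1 (CD90) and ANPEP (CD13), and the pluripotency factors SOX2, NANOG, POU5F1 (OCT4) and KLF4. They were chosen by name, and each of the 10 symbols matched 1 of the 62700 genes in the expression files.

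RNA–Seq of poly(A) RNA was available for 6 libraries of SK–Hep1, an established human line grown from a liver tumour that the study calls endothelial-derived. Of these, 3 were titled as shControl and 3 as carrying an shRNA against the long non-coding RNA RAB30-DT. In the methods, both kinds of line were made by lentiviral transduction of pLKO.1 vectors and puromycin selection, so each group stands for stable derivatives of 1 cell line. The genotype label of the shControl libraries is WT, the methods name more than 1 shRNA against RAB30-DT, and the titles do not say which was sequenced. Nothing in the labels says that the 3 libraries of a group came from separate cultures, so the tests measure only the spread between these libraries, which may be technical. Values were gene-level TPM, an abundance corrected for gene length within a constant sum per library, so levels of different genes may be set side by side. TPM keep no read number, and the depth of each library is unknown.

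The surface markers have different jobs. CD44 binds hyaluronan in the extracellular matrix, THY1 is a small GPI-anchored glycoprotein of fibroblasts and other mesenchymal cells, ANPEP is a membrane peptidase, CD24 is a short mucin-like protein, and EPCAM and PROM1 are membrane proteins typical of epithelial and progenitor cells. SOX2, NANOG and POU5F1 form the core of the transcription network of pluripotent cells, and KLF4 is a zinc finger factor that also acts in many differentiated cells, where its mRNA is induced quickly and decays quickly. All of them can be measured as mRNA in a bulk library, where fewer cells carrying a marker and less RNA per cell cannot be told apart.

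The study followed 3 of these genes, CD44, PROM1 and SOX2, by qPCR in HepG2 cells, a different liver tumour line from the one sequenced here. The oligonucleotides are shown because they fix which transcripts of each gene that assay can see, and they are printed 5′ to 3′ in lower case, with positions on hg38 found by matching them to GENCODE transcripts.
CD44-F: ccagaaggaacagtggtttggc
CD44-R: actgtcctctgggcttggtgtt
CD133-F: cactaccaaggacaaggcgttc
CD133-R: caacgcctctttggtctccttg
SOX2-F: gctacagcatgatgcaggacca
SOX2-R: tctgcgagctggtcatggagtt
Each primer was 22 bases long and matched coding sequence. The CD44 forward primer matched chr11:35204552-35204573 on the plus strand in exon 10 of the 18 exons of the canonical transcript (5431 bases), and the reverse primer matched the minus strand at chr11:35206152-35206173 in exon 11, giving a product of 151 bases. A shorter transcript of 4288 bases has 9 exons and lacks exons 6 to 14 of the canonical one, so both primers lie in the variable part of the gene. Of 38 annotated CD44 transcripts, 4 held both primer sites. PROM1 lies on the minus strand, and its primers matched chr4:16024308-16024329 in exon 7 and chr4:16018515-16018536 in exon 9 of 28, with a product of 151 bases and both sites in 11 of 22 transcripts. The SOX2 primers matched chr3:181712869-181712890 and chr3:181712982-181713003 in the gene's single exon, with a product of 135 bases. The TPM are totals per gene and do not separate the CD44 transcripts that hold these sites from those that lack them.

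Values per library are given for replicates 1, 2 and 3 of a group, in this order. RAB30-DT, the targeted RNA, was at 18.16, 11.51 and 13.91 TPM in the control libraries, and at 11.94, 10.85 and 6.5 TPM in the knockdown libraries. The groups overlapped, because the library labelled knockdown replicate 1 was above control replicate 2, and the log2 fold change of −0.55 (standard error 0.27) did not pass limma's test (adjusted p = 0.355). The study reports a qPCR check of RAB30-DT knockdown in SK–Hep1 cells, without saying whether the sequenced cultures were used. Control and knockdown are used below as the labels give them. Control replicate 3 lay farthest from the other libraries, and control replicate 1 was next. The median distance of control replicate 3 from the median of the other libraries was 0.40 on the log2 scale over 14020 tested genes. It was 0.36 for control replicate 1 and 0.20 to 0.28 for the rest. Control replicate 3 held the highest or lowest value for 52.5% of tested genes, control replicate 1 for 44.8%, and the rest for 17.3% to 32.9%. The libraries also differed in how gene levels followed GC content, with Spearman's rho across genes from −0.61 in control replicate 1 to 0.49 in control replicate 3. In both groups rho rose with the replicate number, at −0.61, 0.29 and 0.49 in control and −0.52, 0.02 and 0.335 in knockdown libraries. Endothelial genes were nearly absent, with 0 of 7 markers reaching a mean of 1 TPM and KDR, the main VEGF receptor, listed at 0 in all 6 libraries. Their summed level was 0.40 to 3.21 TPM in control and 0.59 to 1.46 TPM in knockdown libraries. Of 7 hepatocyte markers, 5 were listed at 0 in all libraries, ALB and HNF4A among them, and only SERPINA1 reached 1 TPM, so that the sum was 18.11 to 23.96 TPM in control and 28.25 to 37.19 TPM in knockdown libraries. Mesenchymal markers summed to 3813 to 4032 TPM in control and 4367 to 4815 TPM in knockdown libraries, nearly all of it VIM, with 6 of 7 at 1 TPM or more. Epithelial markers summed to 8.38 to 14.31 and 7.22 to 8.54 TPM, with CDH1 and GRHL2 listed at 0, and blood markers stayed at or below 0.42 TPM in sum. The part of these differences in the results below was not tested.

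The SK–Hep1 cells expressed 4 of the 6 surface markers and 2 of the 4 pluripotency factors. In order of mean level these were CD44 (643 TPM over 6 libraries), ANPEP (155 TPM), THY1 (110 TPM), CD24 (24.0 TPM), KLF4 (6.76 TPM) and POU5F1 (3.95 TPM). The level of CD44 was higher than that of 99.1% of protein-coding genes, whereas POU5F1 lay near the middle, at 49.4%. EPCAM was listed at 0.18 TPM in control replicate 3 and at 0 elsewhere, and PROM1, SOX2 and NANOG were listed at 0 in all 6 libraries. The files give 2 decimals, so that a listed 0 allows at most 0.005 TPM by rounding. A 0 of this kind was common among protein-coding genes, of which 4171 of 20046 (20.8%) were at 0 in all libraries. It was rare among genes that every cell uses, as 4 of 141 ribosomal, proteasome, RNA polymerase II and EIF3 genes were at 0 in any library, and these were RPL3L, PSMA8, RPL10L and PSMB11, forms restricted to muscle, testis or thymus. Not all neighbours in the order were set apart beyond their spread. CD44 was above ANPEP in 6 of 6 libraries, by 2.22 ± 0.76 on the log2 scale (SD, n = 6), and THY1 was above CD24 in 6 of 6, by 2.27 ± 0.48 (SD, n = 6). ANPEP exceeded THY1 in 4 of 6 libraries (0.36 ± 0.99, SD, n = 6) and KLF4 exceeded POU5F1 in 4 of 6 (0.41 ± 0.75, SD, n = 6), so over all 6 libraries these pairs had no fixed order. Within the groups, ANPEP was above THY1 by 1.02 to 1.14 in the 3 knockdown libraries, and by −0.07, 0.31 and −1.38 in the control libraries. CD24 exceeded KLF4 by 2.16 ± 1.55 (SD, n = 6), with the order turned in control replicate 3 alone.

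**Figure D1:**
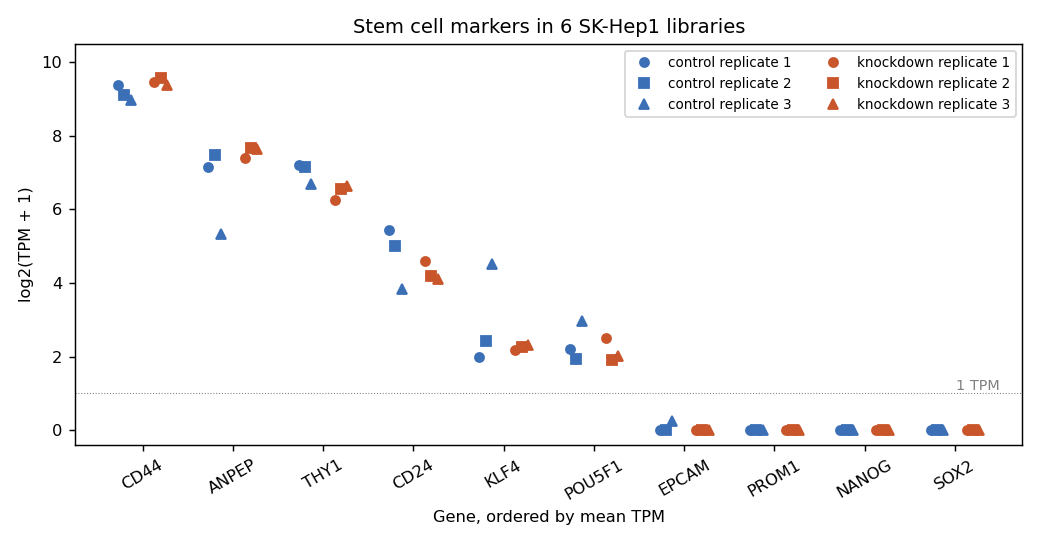
Level of each marker in each library, as log2(TPM + 1) on the vertical axis, with genes ordered by mean TPM from left to right, control libraries in blue, knockdown libraries in orange and a separate symbol for each replicate number. CD44 lies between 507 and 755 TPM in all libraries, 4 genes on the right lie at or near 0, and the blue triangle, control replicate 3, lies far below the other libraries for ANPEP and far above them for KLF4.

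Of the 6 markers with a mean of at least 1 TPM, 0 were called different between knockdown and control cells by limma at an adjusted p under 0.05, where 1.04% of the 14020 genes tested were called. At an unadjusted p under 0.05 there was 1 of 6, THY1, against 16.8% of tested genes. With limma's arrayWeights, which gives each library a weight from its own spread, 3 of 6 were called (CD44, CD24 and THY1), against 23.0% of tested genes in that fit. The knockdown and control libraries did not overlap for 2 of the 6 markers, CD44 and THY1, which held for 23.3% of tested genes. With control replicate 3 left out, an alternative added after the data were seen, it was 3 of 6, with CD24 as well, against 35.8% of the genes tested then. CD44 and ANPEP had positive and THY1, CD24, KLF4 and POU5F1 negative log2 fold changes, with a median of −0.34 over the 6 against −0.04 over all tested genes. Without control replicate 3 the median of the 6 was 0.06, since KLF4 and POU5F1 then had positive values.

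**Figure D2:**
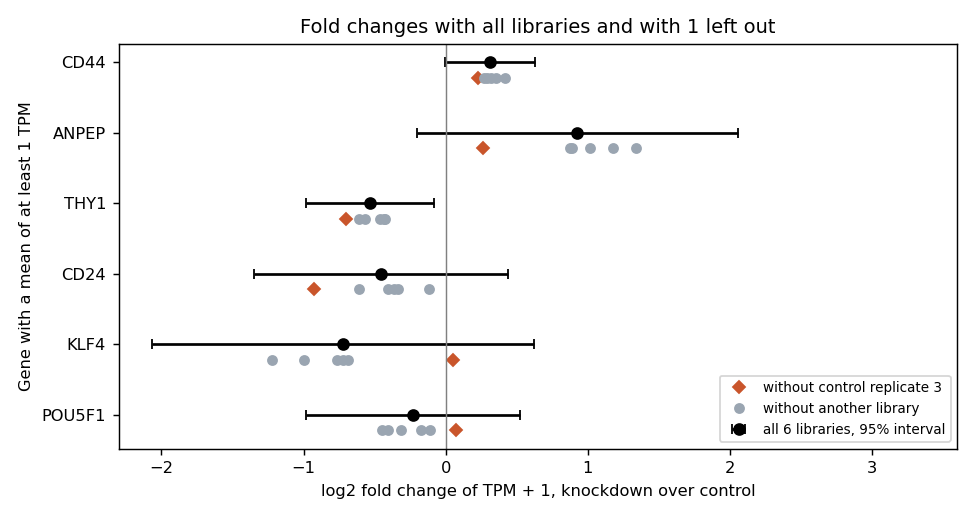
Log2 fold change of TPM + 1, knockdown over control, on the horizontal axis for the 6 markers with a mean of at least 1 TPM, as the limma estimate with its 95% interval in black and the estimates with 1 library left out beneath it. All intervals but that of THY1 reach across 0, and leaving out control replicate 3 (orange diamonds) takes KLF4 from −0.72 to 0.049 and ANPEP from 0.93 to 0.26.

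CD44 (ENSG00000026508.21), the hyaluronan receptor, lies on the plus strand of chromosome 11 at chr11:35138882-35232402. It was at 661.81, 557.57 and 507.14 TPM in the control libraries, and at 705.26, 755.04 and 672.1 TPM in the knockdown libraries. The 3 knockdown values were above the 3 control values, though knockdown replicate 3 exceeded control replicate 1 by little. The means were 576 ± 78.9 and 711 ± 41.8 TPM (SD, n = 3 each), and the log2 fold change was 0.31 (standard error 0.14, 95% interval −0.01 to 0.63, limma adjusted p = 0.304). An exact two-sided permutation test of the TPM gave p = 0.1, the smallest that 3 libraries against 3 allow. Leaving out any 1 library gave log2 fold changes from 0.23 to 0.42. The antisense RNAs CD44-AS1 and CD44-DT overlap CD44 exons on the other strand by 84 and 70 bases and stayed at or below 1.32 and 0.76 TPM, far below the level of CD44.

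Around CD44, a list of 25 genes for its ligand hyaluronan and its binding partners held 20 tested genes, of which 7 had positive and 13 negative log2 fold changes, with a median of −0.19 against −0.04 for all tested genes. Quantile normalization gave 10 positive and 10 negative values (median −0.06), and so did the fit without control replicate 1 (median −0.02). Of the 20 genes 0 rose and 2 fell, where 1.04% of all tested genes were called. HAS3, a synthase that makes hyaluronan at the cell surface, was at 29.02, 32.62 and 43.33 TPM in control and at 10.55, 11.75 and 15.17 TPM in knockdown libraries, with a log2 fold change of −1.41 (standard error 0.22, limma adjusted p = 0.0343). All knockdown libraries lay below all control libraries. The call for HAS3 was lost without control replicate 2 (adjusted p = 0.147 in limma) and without knockdown replicates 1, 2 and 3 (0.136, 0.174 and 0.124), with median-of-ratios scaling (0.0566) and with no filter on low genes (0.106). The other synthases were near or at 0, with HAS1 listed at 0 in all libraries and HAS2 at or below 0.08 TPM. NF2, whose product merlin is bound by the tail of CD44 and opposes growth, fell from 79.1 ± 3.90 to 37.3 ± 2.52 TPM (SD, n = 3 each), with a log2 fold change of −1.06 (standard error 0.15, limma adjusted p = 0.0285). The call for NF2 was likewise lost without control replicate 2 (adjusted p = 0.141 in limma) and without knockdown replicates 1, 2 and 3 (0.106, 0.153 and 0.148), and with no filter (0.0535). Its relatives that tie CD44 to actin, EZR, MSN and RDX, did not pass the test. EZR had a log2 fold change of −0.31 (limma adjusted p = 0.345) and MSN of 0.15 (limma adjusted p = 0.673), and the value for MSN turned to −0.01 without control replicate 3.

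Genes that break hyaluronan down had unlike values. HYAL3, a hyaluronidase-like gene, was at 2.36, 3.75 and 4.7 TPM in control and 7.92, 9.44 and 8.47 TPM in knockdown libraries, and its log2 fold change of 1.09 did not pass the test (limma adjusted p = 0.091). Its groups did not overlap, and it passed with the GC trend removed (1.18, limma adjusted p = 0.0111) and with arrayWeights (limma adjusted p = 0.00314). SRGN, which encodes the proteoglycan serglycin, a ligand of CD44, was the most abundant gene of the list. It was at 1410 ± 350 TPM in control and 1097 ± 81.3 TPM in knockdown libraries (SD, n = 3 each), with overlapping groups and a log2 fold change of −0.33 (limma adjusted p = 0.40). The lymphatic hyaluronan receptor LYVE1 was listed at 0 throughout. In all, the groups did not overlap for 7 of the 20 genes, against 23.3% of all tested genes. This list too was chosen with earlier results of these data known, so the shares are no test of it.

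Because the qPCR primers for CD44 lie in its variable exons, 12 RNA-binding proteins known to act on the choice of CD44 exons were examined as well. Of the 10 tested, 1 had a positive and 9 a negative log2 fold change, with a median of −0.24 against −0.04 for all tested genes. The groups did not overlap for 7 of the 10, against 23.3% of all tested genes. The list was chosen with earlier results of these data known, so setting these shares side by side is no test of it. One of them fell (1.04% of all tested genes were called), TRA2B, an SR-like protein that promotes exon inclusion, with a log2 fold change of −0.85 (standard error 0.14, limma adjusted p = 0.0415). TRA2B was at 241.59, 266.75 and 300.6 TPM in control and at 150.44, 143.1 and 151.39 TPM in knockdown libraries. Its call was lost in limma without control replicates 2 and 3 (adjusted p = 0.165 and 0.0569), without knockdown replicates 1, 2 and 3 (0.14, 0.226 and 0.18), and with median-of-ratios scaling (0.0733), quantile normalization (0.0584), the GC trend removed (0.065), no filter (0.0917) or eBayes without trend (0.0875). SRSF1, a further SR protein, was at 375 ± 57.2 and 207 ± 17.4 TPM (SD, n = 3 each), with a log2 fold change of −0.84 that missed the threshold (limma adjusted p = 0.0559). HNRNPL, a nuclear RNA-binding protein that steers exon choice, was at 501 ± 162 TPM in control and 300 ± 9.79 TPM in knockdown libraries (SD, n = 3 each; log2 fold change −0.69, limma adjusted p = 0.161). Control replicate 3 was the highest library for HNRNPL, at 685.45 TPM, and without it the log2 fold change was −0.45 (limma adjusted p = 0.15). HNRNPA1 and YBX1, the most abundant of the list at 2054 ± 229 and 1857 ± 289 TPM in control libraries (SD, n = 3), had log2 fold changes of −0.05 and −0.14 (limma adjusted p = 0.876 and 0.643). ESRP1 and ESRP2, the epithelial regulators that favour variable CD44 exons, stayed at or below 0.22 and 1.04 TPM. The TPM hold no exon counts, so use of the CD44 exons was not measured here.

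**Figure D3:**
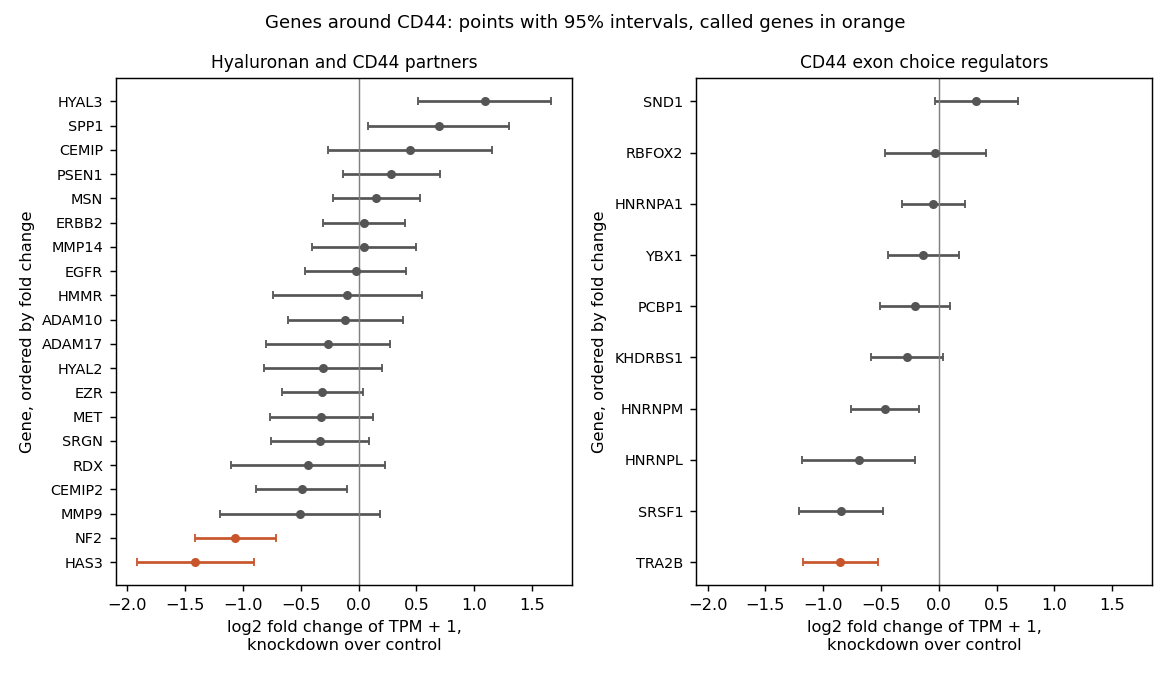
Log2 fold changes of TPM + 1, knockdown over control, with 95% intervals, for the 20 tested genes of the hyaluronan and CD44 list on the left and the 10 tested regulators of CD44 exon choice on the right, ordered by fold change, with genes past an adjusted p of 0.05 in orange. HAS3 and NF2 at the bottom left and TRA2B at the bottom right are the genes called, and 9 of the 10 regulators lie left of 0.

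THY1 (ENSG00000154096.14), on the minus strand of chromosome 11 at chr11:119415476-119424985, was at 148.02, 142.37 and 101.76 TPM in the control libraries, and at 76.02, 92.84 and 98.74 TPM in the knockdown libraries. The 3 knockdown values were below the 3 control values, with knockdown replicate 3 and control replicate 3 close together. The means were 131 ± 25.2 and 89.2 ± 11.8 TPM (SD, n = 3 each), and the log2 fold change of −0.54 (standard error 0.20, 95% interval −0.99 to −0.09) did not pass limma's test over all genes (adjusted p = 0.226). The exact two-sided permutation test again gave its smallest value, p = 0.1. THY1 was the marker that control replicate 3 set apart least, since that library lay 0.04 on the log2 scale from the median of the others, and without it the log2 fold change was −0.71 (limma adjusted p = 0.105). The antisense gene THY1-AS1 shares 632 exon bases with THY1 on the other strand. It was named after its values were seen, and was at 22.47, 37.92 and 20.89 TPM in control and 12.42, 11.79 and 21.31 TPM in knockdown libraries (log2 fold change −0.80, limma adjusted p = 0.241). A second antisense gene, USP2-AS1, shares 232 exon bases and was at 4.34 to 9.81 TPM. The library protocol names no step that marks strand, so reads over these shared bases cannot be told apart.

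ANPEP (ENSG00000166825.15), the aminopeptidase also known as CD13, lies on the minus strand of chromosome 15 at chr15:89784895-89815401. ANPEP was at 141.39, 176.59 and 39.01 TPM in the control libraries, and at 167.92, 203.11 and 200.02 TPM in the knockdown libraries. Control replicate 3 was far below all other libraries, and the groups overlapped because control replicate 2 exceeded knockdown replicate 1. The log2 fold change was 0.93 with a standard error of 0.49 (95% interval −0.20 to 2.06, limma adjusted p = 0.386), and the exact two-sided permutation test gave p = 0.2. Without control replicate 3 it was 0.26 (limma adjusted p = 0.448).

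A list of 13 relatives and partners of the surface markers held 10 membrane or intracellular peptidases, most of them of the same aminopeptidase family as ANPEP, and 8 of the 13 genes were tested. Of these 1 rose and 0 fell, where 1.04% of all tested genes were called, and the median log2 fold change was −0.07. Without control replicate 1 the median was 0.17. The gene that rose was MME, the endopeptidase neprilysin (CD10), like ANPEP a zinc peptidase of the cell surface. MME was at 416.88, 311.62 and 299.69 TPM in control and at 889.99, 801.22 and 749.5 TPM in knockdown libraries. All knockdown libraries were well above all control libraries, with a log2 fold change of 1.26 (standard error 0.16, limma adjusted p = 0.024). Even so, the call for MME was lost in limma without control replicate 2 (adjusted p = 0.119) and without knockdown replicates 1, 2 and 3 (0.0944, 0.136 and 0.0958), with values between 1.19 and 1.31 on the log2 scale in these fits, and with no filter (0.0854). NPEPPS and RNPEP, cytosolic or secreted aminopeptidases at 99.9 ± 30.8 and 70.0 ± 13.3 TPM in control libraries (SD, n = 3), had log2 fold changes of 0.12 and −0.15, neither past the test (limma adjusted p = 0.852 and 0.716). LNPEP had a log2 fold change of 0.37 (limma adjusted p = 0.566). Without control replicate 3 these were −0.13 for NPEPPS, −0.27 for RNPEP and 0.12 for LNPEP, and RNPEP was at −0.009 without control replicate 2. ENPEP and the dipeptidyl peptidase DPP4 were listed at 0 in all libraries.

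CD24 (ENSG00000272398.6), at chr6:106969831-106975627 on the minus strand, was at 42.75, 31.22 and 13.25 TPM in the control libraries, and at 23.36, 17.37 and 16.3 TPM in the knockdown libraries. The control libraries held both the highest and the lowest values, so the groups overlapped. The means were 29.1 ± 14.9 and 19.0 ± 3.81 TPM (SD, n = 3 each), the log2 fold change was −0.46 (standard error 0.39, 95% interval −1.35 to 0.44, limma adjusted p = 0.584), and the exact two-sided permutation test gave p = 0.4. The estimate depended on which control library was left out, at −0.12 without control replicate 1 and −0.92 if control replicate 3 was dropped instead, neither past the test in limma (adjusted p = 0.855 and 0.111). CD24 is a gene with copies elsewhere, and 7.9% of the 50-base stretches of its main transcript also occur in transcripts of other genes. The 3 CD24 pseudogenes examined, those not on chromosome Y, were listed at 0 in all libraries. CD24P4, a copy that does share such stretches, was not among them, and its level was not examined.

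EPCAM (ENSG00000119888.11, chr2:47345158-47387601) and PROM1 (ENSG00000007062.12, chr4:15963076-16084378) were the surface markers without a level. Only control replicate 3 held a value for EPCAM, of 0.18 TPM. With a single value above 0 the exact two-sided permutation test can give only p = 1, so it says nothing about the groups. CLDN7, a claudin that binds EPCAM, was present at 43.0 ± 15.7 TPM in control and 32.7 ± 2.97 TPM in knockdown libraries (SD, n = 3 each; log2 fold change −0.33, limma adjusted p = 0.538), and was named after its values were seen. PROM2, the relative of PROM1, was at 1.33, 1.33 and 1.82 TPM in control and 0.73, 0.32 and 1.4 TPM in knockdown libraries, with overlapping groups and a log2 fold change of −0.49 (limma adjusted p = 0.487). No movement of PROM1 or EPCAM with the knockdown could be measured in these libraries.

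KLF4 (ENSG00000136826.15) lies on the minus strand of chromosome 9 at chr9:107484852-107490482. It was at 2.94, 4.36 and 21.96 TPM in the control libraries, and at 3.51, 3.76 and 4.01 TPM in the knockdown libraries. A single library, control replicate 3, was high, and the knockdown libraries lay between the other 2 control libraries. Control and knockdown means were 9.75 ± 10.6 and 3.76 ± 0.25 TPM (SD, n = 3 each), the log2 fold change was −0.72 (standard error 0.58, 95% interval −2.07 to 0.62, limma adjusted p = 0.565), and the exact two-sided permutation test gave p = 0.6. Without control replicate 3 the log2 fold change was 0.049 (limma adjusted p = 0.936). The antisense RNA ENSG00000289987 shares 357 exon bases with KLF4 and had its highest value, 2.24 TPM, in the same library.

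Among the other 17 genes of the KLF family, 11 were tested, and 7 had positive and 4 negative log2 fold changes. Their median was 0.31 against −0.04 over all tested genes, and 0 of the 11 were called, against 1.04% of those genes. With median-of-ratios scaling, quantile normalization or the GC trend removed there were 8 positive and 3 negative. KLF2 and KLF6, zinc finger factors that like KLF4 respond quickly to stimuli, shared its high value in control replicate 3. KLF2 was at 119.16 TPM there and at 27.79 to 37.03 TPM in the other 5 libraries, and KLF6 at 227.71 against 60.55 to 70.18 TPM. KLF10, named after its values were seen, was at 53.22 against 15.95 to 23.76 TPM. In turn 5 others, KLF3, KLF7, KLF9, KLF12 and KLF13, had their lowest value in that library, and of these all but KLF7 were named after their values were seen. Of all 14020 tested genes, 2843 had their highest and 4511 their lowest value in that library. KLF7, a factor best known from neurons, had the largest log2 fold change of the 11, at 0.80 (limma adjusted p = 0.177), with 11.4 ± 3.23 TPM in control and 20.2 ± 3.65 TPM in knockdown libraries (SD, n = 3 each) and no overlap. KLF7 passed with the GC trend removed (0.78, limma adjusted p = 0.0341) and with arrayWeights (limma adjusted p = 0.017).

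**Figure D4:**
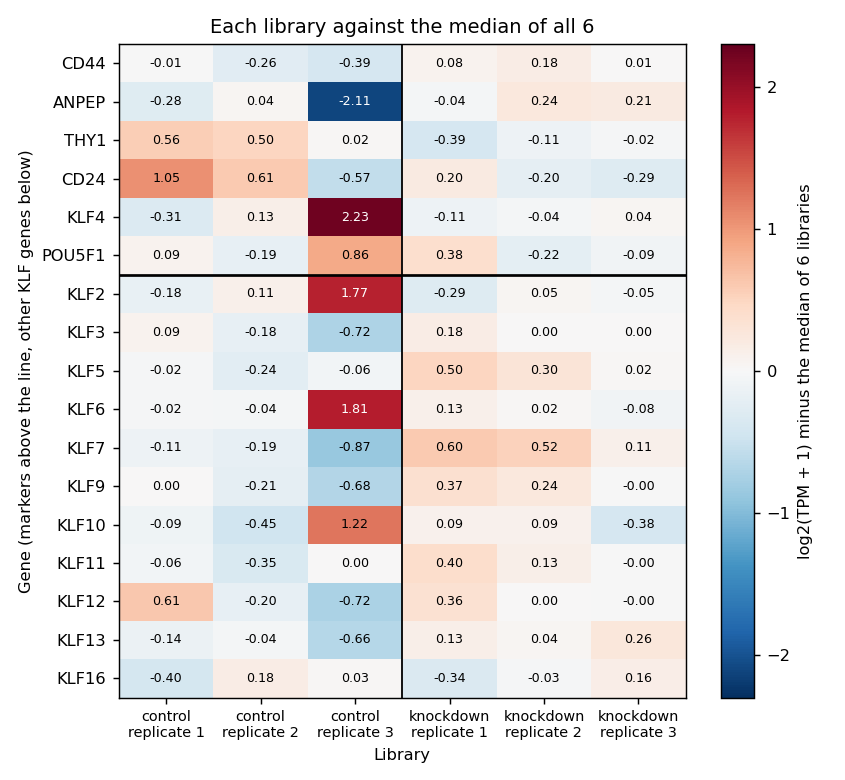
Deviation of each library from the median of all 6, as log2(TPM + 1), for the 6 markers with a mean of at least 1 TPM above the line and the 11 tested KLF genes below it, with control libraries on the left. Control replicate 3 holds the widest deviations, 2.23 for KLF4 and −2.11 for ANPEP, with KLF2 (1.77) and KLF6 (1.81) near KLF4.

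POU5F1 (ENSG00000204531.21), which encodes OCT4, was at 3.6, 2.8 and 6.87 TPM in the control libraries, and at 4.63, 2.72 and 3.07 TPM in the knockdown libraries. The groups overlapped and control replicate 3 was the highest library. The means were 4.42 ± 2.16 and 3.47 ± 1.02 TPM (SD, n = 3 each), with a log2 fold change of −0.23 (standard error 0.33, 95% interval −0.98 to 0.52, limma adjusted p = 0.763) and p = 0.6 in the exact two-sided permutation test. It was 0.074 without control replicate 3 (limma adjusted p = 0.913). The level itself is uncertain. Of the 50-base stretches of its main transcript, 63.9% also occur in POU5F1B, POU5F1P3 or POU5F1P4, which leaves the split of reads to the quantification. POU5F1B was listed at 0 in all libraries, and POU5F1P3 and POU5F1P4 were at or below 0.21 TPM. Among the 6 POU5F1 pseudogenes the highest value was 2.01 TPM, for POU5F1P5, which shares none of these 50-base stretches. On the other strand TCF19, a gene linked to cell growth and named here after its values were seen, shares 248 exon bases with POU5F1 and was far more abundant. TCF19 was at 44.83, 51.43 and 78.29 TPM in control and 28.9, 32.63 and 34.7 TPM in knockdown libraries (log2 fold change −0.80, limma adjusted p = 0.142), also highest in control replicate 3. POU5F1 lies at chr6:31164337-31180731 on the minus strand. Of 15 other POU genes 4 were tested and 0 were called, against 1.04% of all tested genes. There were 3 positive and 1 negative log2 fold changes. The count was 2 and 2 with quantile normalization, and turned to 1 and 3 without control replicate 3 (median −0.06, against 0.14 with all libraries).

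SOX2 (ENSG00000181449.4, chr3:181711925-181714436) and NANOG (ENSG00000111704.11, chr12:7787794-7799146) were not detected at the precision of the files. For NANOG, 28.4% of the 50-base stretches of its main transcript occur in other genes as well, so its reads could have been given to a copy. Of 11 NANOG pseudogenes 8 were listed at 0 in all libraries, and the highest value of any was 0.23 TPM. SOX2 shared 2.0% of its stretches. Its long host RNA SOX2-OT was at or below 0.16 TPM. Of 18 further SOX genes 6 were listed at 0 throughout and 7 were tested. Of the 7, 0 were called, against 1.04% of all tested genes. Their log2 fold changes were positive for 1 and negative for 6 (median −0.31, against −0.04 over all tested genes). Median-of-ratios scaling and removal of the GC trend each gave 2 and 5. Without control replicate 2, 6 were tested, with 3 positive and 3 negative (median −0.12). Without control replicate 3, 6 were tested, with 0 positive and 6 negative. SOX9, a factor of bile duct and progenitor cells, was the most abundant of them. It was at 39.56, 39.43 and 29.98 TPM in control and 40.63, 38.19 and 38.93 TPM in knockdown libraries, with overlapping groups and a log2 fold change of 0.12 (limma adjusted p = 0.773). SOX12 was at 17.35, 39.95 and 33.94 TPM in control and 13.57, 18.18 and 19.58 TPM in knockdown libraries. Control replicate 1 was below 2 of the knockdown libraries, and the log2 fold change of −0.73 did not pass the test (limma adjusted p = 0.291), though it did without that library (−1.08, limma adjusted p = 0.0391).

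The wider pluripotency network was mostly at or near 0. Of 28 genes, 15 were listed at 0 in all libraries, among them LIN28B, the pluripotency marker ZFP42 (REX1), DPPA4, TDGF1 and PRDM14, and only 5 reached a mean of 1 TPM. Of these 5, 0 were called, against 1.04% of all tested genes. Their log2 fold changes were positive for 1 and negative for 4, with a median of −0.09 against −0.04 over all tested genes. Without control replicate 3, 4 were tested and all 4 were positive (median 0.05). MYC, a growth factor-responsive gene of most dividing cells, was at 153 ± 24.6 TPM in control and 145 ± 1.47 TPM in knockdown libraries (SD, n = 3 each; log2 fold change −0.06, limma adjusted p = 0.88). TBX3, a developmental repressor, was at 14.91, 16.43 and 7.85 TPM in control and 25.0, 24.64 and 24.63 TPM in knockdown libraries. Its groups did not overlap, and its log2 fold change of 0.93 had a limma adjusted p of 0.145. TERT, the telomerase subunit, was at 2.1, 0.54 and 3.06 TPM in control and 0.29, 0.67 and 0.29 TPM in knockdown libraries, with overlap and a log2 fold change of −0.93 (limma adjusted p = 0.302). DNMT3B, the methyltransferase of early development, stayed at 3.86 to 6.71 TPM over the 6 libraries.

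A further 18 genes used as markers of stem-like cells of the liver were examined. Of these, 4 were listed at 0 in all libraries (LGR5, DLK1, LIN28B and GPC3). Of the 12 tested, 0 were called, against 1.04% of all tested genes. The log2 fold changes were positive for 4 and negative for 8, with a median of −0.05 against −0.04 over all tested genes. There were 6 positive and 6 negative with median-of-ratios scaling and with quantile normalization, and 7 and 6 of 13 without control replicate 1 (median 0.11) and without knockdown replicate 3 (median 0.03). KRT19, a keratin of bile duct and progenitor cells, had the highest level. It was at 390.31, 611.95 and 443.03 TPM in control and 725.24, 923.15 and 914.01 TPM in knockdown libraries. All knockdown libraries were above all control libraries, and the log2 fold change of 0.84 (standard error 0.19) missed the threshold (limma adjusted p = 0.0868). ALDH1A1, an aldehyde dehydrogenase used to score stem-like cells by enzyme activity, was at 10.95, 8.07 and 12.6 TPM in control and 4.29, 3.93 and 2.5 TPM in knockdown libraries. These groups did not overlap either, and the log2 fold change of −1.34 (standard error 0.26) had a limma adjusted p of 0.0588. With the GC trend removed, both passed, KRT19 at 0.92 and ALDH1A1 at −1.36 (limma adjusted p = 0.0159 and 0.0255). CD47, the signal that protects cells from phagocytes, and ALCAM, an adhesion protein, were at 43.0 ± 21.2 and 135 ± 43.4 TPM in control libraries (SD, n = 3) and had log2 fold changes of 0.42 and −0.02 (limma adjusted p = 0.565 and 0.979). For CD47 the value was 0.074 without control replicate 3 and 0.78 without control replicate 1. The sign for ALCAM was not fixed, at 0.13 with quantile normalization.

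Control replicate 3 held the highest or lowest of the 6 values for 5 of the 6 tested markers, against 52.5% of all tested genes. It was the lowest library for CD44, ANPEP and CD24 and the highest for KLF4 and POU5F1. The library lay 2.27 above the median of the other 5 for KLF4 on the log2 scale, and 2.15 below it for ANPEP (a difference of −2.15). Only 1.06% and 1.21% of tested genes lay as far from it in either direction. The same distance was 0.95 for POU5F1, −0.77 for CD24 and −0.41 for CD44, which 12.1%, 19.8% and 49.1% of tested genes reached.

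The genes whose pattern over the 6 libraries was closest to each marker, by the root mean square difference of centred log2(TPM + 1), were found for each of the 6 tested markers. For KLF4 these were DUSP6 (0.15), a phosphatase induced by ERK signalling, ADM (0.15), which encodes the peptide adrenomedullin, and ENSG00000275993 (0.18). For ANPEP they were OASL (0.13), an interferon-stimulated gene, ABLIM3 (0.14) and L1CAM (0.18), a neural adhesion protein. The nearest to CD44 were ZEB2 (0.04), a repressor of epithelial genes, DHRS4-AS1 (0.04) and GID8 (0.05). THY1 was followed most closely by GPR107, BLVRA and RNF138 (each 0.09), and CD24 by ACSL4 (0.07), ARG2 (0.09) and PPIP5K2 (0.09). POU5F1 had DNAAF2 (0.06), ENSG00000264772 (0.09) and ENSG00000267244 (0.10) nearest to it. With 6 libraries and 14020 genes, close neighbours are easily found. Of these 18 neighbours 0 were called, which largely follows from picking them to match markers that were not called.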

How the data were processed

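Per the labels, poly(A) RNA of 3 shControl and 3 shRAB30-DT libraries of SK–Hep1 was sequenced. The authors deposited gene-level TPM, rounded to 2 decimals. Their methods name fastp, STAR, samtools and RSEM, whereas the submitters' processing notes name fastp, HISAT2 2.0.5 and hg38, so the aligner is not settled. All 62700 versioned gene identifiers are those of GENCODE release 44, although the methods name a later one, and release 44 gave symbols, positions and GC content.

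The values were analysed as log2(TPM + 1), so fold changes of low genes are understated, in R 4.3.3 with limma 3.58.1 (lmFit, eBayes with trend, two-sided) for 14020 genes, those whose mean reached 1 TPM, with Benjamini–Hochberg adjustment over these, called at 0.05, and with neither scaling between libraries nor a replicate block. Exact permutation tests used scipy 1.17.1. The fit was also run on simulated data, with noise drawn independently for each gene and library. Those data held no library-wide trends such as that with GC content, so their effect on the calls was not tested there.

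The markers and all gene lists were chosen with earlier results of these data known. Of each list, the called genes and the 3 with the largest fold change and the 3 with the highest level were named. The 3 nearest patterns of each tested marker and the pseudogenes of the markers, other than those on chromosome Y, were named as well. Alternatives were pseudocounts of 0.1 and 5, quantile normalization, median-of-ratios scaling, no filter (genes above 0 in any library) or a minimum of 5 TPM, removal of each library's GC trend (loess, span 0.3), eBayes without trend or robust, arrayWeights (gene-by-gene), a replicate block, a threshold of 0.01, and each library left out with the filter applied anew. Removal of control replicate 3 from the count of groups without overlap was added after the data were seen. One gene of the lists is not reported here.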

Additional observations from a re-analysis of the deposited data

How the results depend on the processing

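Leaving out 1 library gave log2 fold changes from −1.222 to 0.049 for KLF4 and −0.451 to 0.074 for POU5F1, both positive without control replicate 3. With arrayWeights, 3 markers passed the threshold in limma, CD44 at 0.39, CD24 at −0.71 and THY1 at −0.60 (adjusted p = 0.0166, 0.0371 and 0.0113). In that fit control replicates 1 and 3 had weights of 0.325 and 0.316 and knockdown replicate 2 of 4.39. The number of markers called was 0 under each of the other alternatives. Of the other named genes, ALCAM turned to 0.00 with median-of-ratios scaling, 0.13 with quantile normalization, 0.077 with arrayWeights. HNRNPA1 turned to 0.095 with arrayWeights and MYC to 0.11 with quantile normalization. Leaving out 1 library also turned some signs, with ranges of −0.209 to 0.224 for ALCAM, −0.294 to 0.039 for DNMT3B, −0.102 to 0.043 for HNRNPA1, −0.874 to 0.051 for KLF6, −0.007 to 0.249 for MSN, −0.156 to 0.063 for MYC, −0.129 to 0.330 for NPEPPS and −0.009 to 0.185 for SOX9. Genes called among all tested numbered 146, 52 higher and 94 lower. Median-of-ratios scaling gave 60 and 69, and quantile normalization 78 and 83. There were 13 with no filter, 1191 with the GC trend removed, 3218 with arrayWeights, 16 at an adjusted p under 0.01, and between 12 and 489 with 1 library left out, the lowest without control replicate 2 and the highest without control replicate 1. Deviations of libraries with the same replicate number correlated at 0.41, 0.036 and 0.279, against −0.355 to 0.111 for unlike numbers. The main fit did not take the numbers as pairs, since the methods give no covariate. The same-number values of 0.41 and 0.279 lie above those of all unlike numbers. The choice of fit does not show that libraries of the same number are independent. A replicate block gave 861 genes, or 1028 with the GC trend removed as well, and 0 markers in both. Over the alternatives, calls ranged from 0 to 6 in the hyaluronan and CD44 list, 0 to 5 among exon regulators, 0 to 2 among surface relatives, 0 to 4 among further liver markers, 0 to 1 in the pluripotency network and 0 to 5 in the factor families (KLF 0 to 3, SOX 0 to 2). The upper ends were reached with arrayWeights, where 23.0% of all tested genes were called. That fit tested 20, 10, 8, 12, 5 and 22 genes of these lists in the same order. POU5F1 had no value with a filter of 5 TPM. TPM hold no depth, so the precision of low genes such as POU5F1 and KLF4 is known only from 3 libraries a group.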
